A study of Mus musculus with 12 samples.

Results

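The genes described here supply amino acids and load them onto transfer RNAs. They were chosen by symbol from the pathway, as 3 genes of asparagine and proline synthesis, 8 amino acid transporters, 19 cytosolic tRNA synthetases and the translation repressor Eif4ebp1. All 31 symbols were found among the 55376 of the deposited count table, and all 31 passed the filter on low values that left 17716 genes for testing. RNA-Seq was performed on 12 samples of live O1+ CD45- cells sorted from brains of C57BL/6 mice at postnatal day 40, with 4 samples per genotype and 2 pooled brains per sample. O1 is a surface lipid of differentiating and mature oligodendrocytes, and CD45 is a leukocyte marker. The WT samples are labelled wild type, with no Cre or floxed allele named. In *Cnp-Cre Jab1fl/fl* mice, Cre under control of the oligodendrocyte gene *Cnp* deletes both alleles of *Jab1* (gene symbol *Cops5*), from late precursors onward. In *Cnp-Cre Jab1fl/fl p21CIP1-/-* mice, called double mutants, the gene of the cell cycle inhibitor p21CIP1 (*Cdkn1a*) is lost as well, in every cell of the animal. None of the 12 samples carries Cre alone or the p21CIP1 deletion alone, so effects of Cre and of *Jab1* loss cannot be told apart.

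Cells take up amino acids through membrane transporters of the solute carrier (Slc) families, make some of them, and attach each to its tRNA through a dedicated synthetase. When an amino acid runs short, uncharged tRNA activates the kinase GCN2, which phosphorylates the initiation factor eIF2. General translation then slows while the transcription factor ATF4 is made, and many of these genes, from *Asns* to the synthetases, are textbook ATF4 targets. The kinase PERK reaches the same step from endoplasmic reticulum stress, to which oligodendrocytes, as large producers of membrane protein, are known to be sensitive.

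ATF4 binds with C/EBP proteins to a composite element that can be written TGATGNAA, where N is any base. To show where these letters stand, the promoters of RefSeq (assembly GRCm38.p6, 250 bases before to 50 bases after each start) were searched on both strands for TGATGNAA and for the stricter TGATGCAA, which it contains. A promoter was held for 20 of the 31 genes, and *Eif4ebp1* and *Cars* were among those without one, so they were not searched. TGATGNAA occurred in 9 of these 20 (*Aars*, *Asns*, *Gars*, *Iars*, *Pycr1*, *Slc1a4*, *Slc7a11*, *Tars* and *Yars*) and in 1219 of 27025 genes with a promoter (4.51%). TGATGCAA occurred in 7 of the 20 genes and in 279 of all genes (1.03%). The promoters of *Aldh18a1* and *Slc7a1* held no match in this window. Of the genes with a match, only *Asns* and *Pycr1* passed the adjusted threshold in a comparison below. The 120 bases before the start are printed for 2 genes that were higher in mutants, *Asns* and *Pycr1*, and for 1 that was not, *Slc7a11*, with the matched letters in capitals and each sequence read 5′ to 3′ along the gene's own strand, which is the reverse strand in all 3. The examples were chosen after their values were seen.
Asns, chr6:7693210-7693329: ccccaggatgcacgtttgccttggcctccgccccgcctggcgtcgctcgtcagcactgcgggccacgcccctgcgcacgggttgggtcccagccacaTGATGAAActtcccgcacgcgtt
Pycr1, chr11:120643749-120643868: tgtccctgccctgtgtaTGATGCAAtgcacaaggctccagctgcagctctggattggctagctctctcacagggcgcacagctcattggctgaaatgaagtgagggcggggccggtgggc
Slc7a11, chr3:50443614-50443733: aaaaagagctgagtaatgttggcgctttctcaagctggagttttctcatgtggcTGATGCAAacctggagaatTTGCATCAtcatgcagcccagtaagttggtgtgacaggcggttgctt
In *Asns* the match lies at -23 to -16 from the start and in *Pycr1* at -103 to -96. These starts are those of RefSeq. In the GENCODE annotation, used for the gene positions below, the 2 genes begin at 7693254 and 120643769, within the printed stretches. By GENCODE the *Asns* match therefore lies inside the gene. *Slc7a11* holds 2 matches that face each other, at -66 to -59 and, on the opposite strand, at -47 to -40.

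Before the genes are compared, the make-up of the samples has to be set out. Summed over 10 mature oligodendrocyte markers, CPM (counts scaled to the library total and a normalization factor) were 45139 to 105683 in WT, between 8999 and 35144 in *Cnp-Cre Jab1fl/fl* and 16875 to 52714 in double mutants. In bulk samples, fewer cells of a type and less RNA per cell cannot be told apart. Microglia markers (20 genes) summed to 116 to 352 CPM in WT, between 1394 and 3649 in *Cnp-Cre Jab1fl/fl* and 524 to 25298 in double mutants, and choroid plexus markers (6 genes) to 288 to 4023, 6407 to 24320 and 5354 to 23651 CPM. Endothelial markers (10 genes) summed to 359 to 760, 792 to 5669 and 683 to 5312 CPM, and astrocyte markers (10 genes) to 6655 to 15276, 4394 to 10212 and 4809 to 14725 CPM. No marker of these lists was at 3 counts or fewer in any sample, whereas up to 6 of 6 T cell markers were. *Cops5* was at 46.3 to 133 CPM in WT, between 45.0 and 89.0 in *Cnp-Cre Jab1fl/fl* and 44.2 to 90.4 in double mutants. *Cdkn1a* was at 16.0 to 85.3, 379 to 637 and 64.7 to 103 CPM, so it was counted in the samples labelled p21CIP1-/-, and counts per gene do not separate deleted exons from others. Totals were 61485556 to 153495112 counts per sample.

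Between *Cnp-Cre Jab1fl/fl* and WT oligodendrocytes, 5 of the 31 genes were higher and 0 were lower at an adjusted p below 0.05 in edgeR's quasi-likelihood test. The 5 were *Eif4ebp1*, *Asns*, *Slc7a1*, *Pycr1* and *Cars*. Of all 17716 genes tested, 5.19% were higher and 2.46% lower by this rule. At an unadjusted p below 0.05, 7 of the 31 genes were higher, against 13.2% of all genes, and 3 were lower, against 9.3%. The 2 groups did not overlap, with mutants above WT, in 6 of the 31 genes, against 9.9% of all genes, and in 0 with mutants below WT, against 7.24%. The median log2 fold change of the 31 genes was 0.14, beside 0.02 for all genes tested, and 23 of the 31 differed by less than 1 on the log2 scale. This median had no stable sign, at -0.04 without *Cnp-Cre Jab1fl/fl* sample 2 and 0.31 without WT sample 5. When each of the 8 samples was left out in turn, *Asns* and *Eif4ebp1* were called in 8 of 8 fits and *Slc7a1* in 7, failing without WT sample 3 (adjusted p = 0.0551, edgeR). *Pycr1* was called in 2 of 8 fits, without *Cnp-Cre Jab1fl/fl* sample 1 or 4, and *Cars* in 1, without WT sample 1, so that these 2 calls depend on nearly every sample. Over all genes, 504 to 1196 were higher in these 8 fits, against 919 with all samples.

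In double mutants compared with the same WT samples, 3 of the 31 genes were higher, namely *Asns*, *Pycr1* and *Eif4ebp1*, and 0 were lower. The background by this rule was 0.175% of all genes higher and 0.0169% lower. At an unadjusted p below 0.05, 7 genes were higher (7.82% of all genes) and 0 lower (4.57% of all genes). The groups did not overlap in 7 genes with double mutants above WT (4.52% of all genes) and in 0 with double mutants below (3.58% of all genes). With 1 sample left out, the number of calls fell to 0 without any one of the 4 WT samples or double-mutant sample 2. It was 1 (*Asns*) without sample 5 and 2 without sample 3, and stayed at 3 without sample 1. Over all genes, 2, 2, 3 and 2 were higher without WT samples 1, 3, 5 and 6, against 31 with all samples. The number was 1, 7 and 8 without double-mutant samples 2, 3 and 5, and 202 without sample 1. Calls among the 31 genes thus fell along with those over all genes, while the estimates of *Asns*, *Pycr1* and *Eif4ebp1* stayed above 0. Since both comparisons use the same WT samples, their results are given side by side and not as independent evidence. Between double mutants and *Cnp-Cre Jab1fl/fl*, 0 of the 31 genes passed the adjusted threshold in edgeR, as did 0% of all genes. In DESeq2 0 of the 31 passed as well, while 20 of all genes tested were higher and 67 lower. At an unadjusted p below 0.05, 1 gene (*Wars*) was higher, against 1.75% of all genes, and 0 were lower, against 3.25%. These groups overlapped in all 31 genes, where 1.22% of all genes were without overlap on the higher and 1.99% on the lower side.

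**Figure D1:**
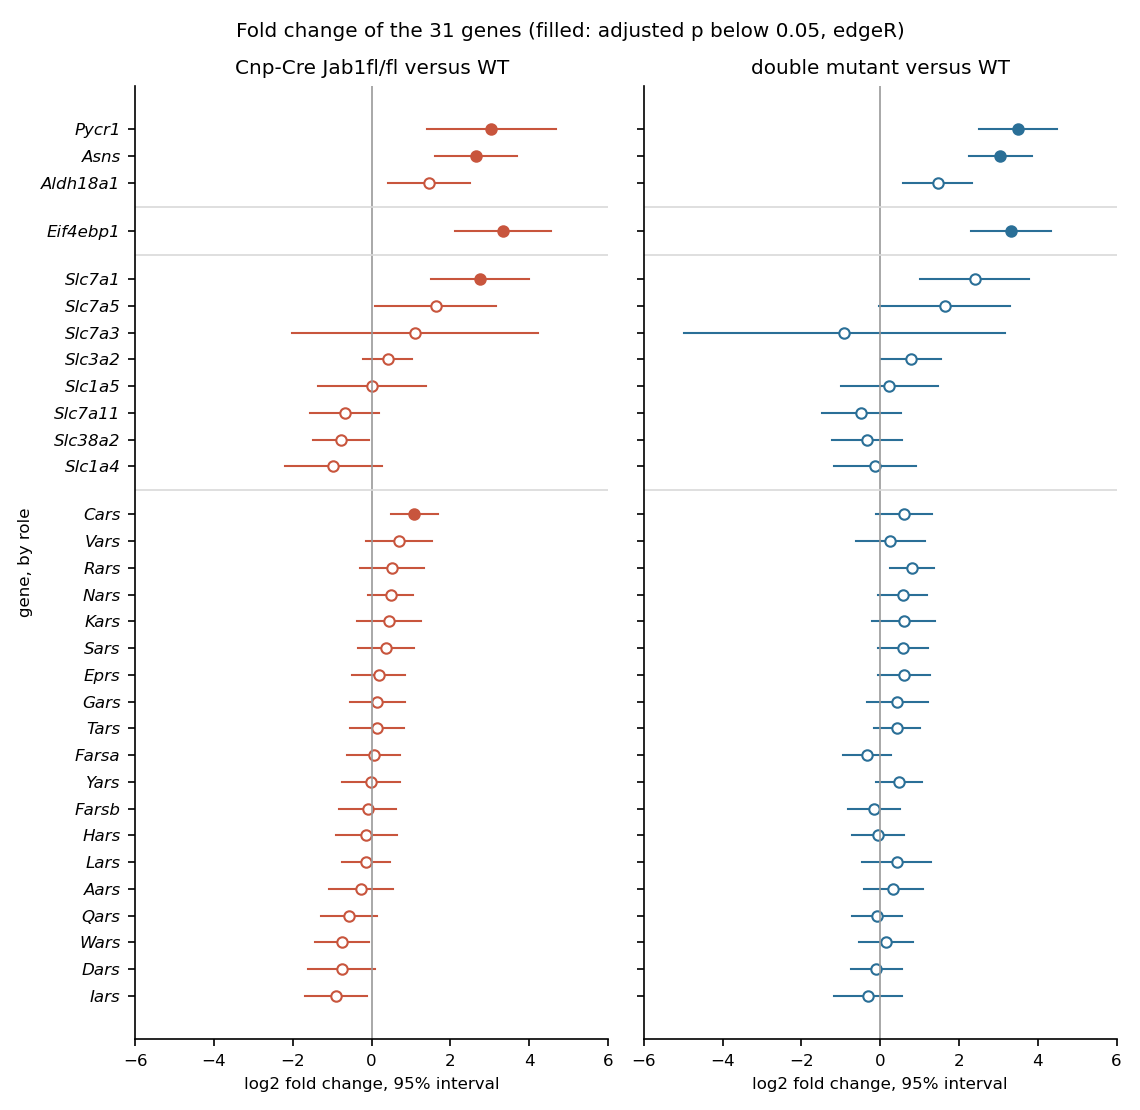
Log2 fold changes (x axis) of the 31 genes, grouped by role from synthesis enzymes at the top to tRNA synthetases at the bottom, in Cnp-Cre Jab1fl/fl (left) and double mutants (right) against WT, n = 4 per genotype. Points are edgeR estimates, lines their 95% intervals, and filled points mark an adjusted p below 0.05, of which there are 5 on the left and 3 on the right.

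*Asns*, asparagine synthetase, makes asparagine from aspartate and glutamine, and lies on the reverse strand at chr6:7675169-7693254 (GRCm38). WT samples 1, 3, 5 and 6 had 7.29, 4.32, 5.22 and 9.30 CPM. *Cnp-Cre Jab1fl/fl* samples 1 to 4 had 40.4, 76.2, 23.98 and 23.97 CPM, and double-mutant samples 1, 2, 3 and 5 had 72.2, 51.4, 42.3 and 52.2 CPM. Each of the 8 mutant samples was above each WT sample, and the lowest of them was 2.58 times the highest WT sample. The means were 6.53 ± 2.22 in WT, 41.1 ± 24.6 in *Cnp-Cre Jab1fl/fl* and 54.5 ± 12.6 CPM in double mutants (SD, n = 4). The log2 fold change against WT was 2.65 in *Cnp-Cre Jab1fl/fl* (standard error [SE] 0.48, adjusted p = 0.00861, edgeR) and 3.05 in double mutants (SE 0.36, adjusted p = 0.0275, edgeR). Double mutants differed from *Cnp-Cre Jab1fl/fl* by 0.41 (95% interval -0.51 to 1.32), which was within the spread between samples.

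*Pycr1*, the mitochondrial reductase of the last step of proline synthesis, lies on the reverse strand at chr11:120635712-120643769. It was low in WT, at 2.10, 3.07, 1.52 and 3.14 CPM in samples 1, 3, 5 and 6. *Cnp-Cre Jab1fl/fl* samples 1 to 4 had 9.13, 46.9, 21.1 and 3.63 CPM, of which sample 4 was barely above WT. The double mutants were more even, at 34.3, 28.9, 16.5 and 32.2 CPM in samples 1, 2, 3 and 5. The groups did not overlap with WT in either comparison. The log2 fold change was 3.04 (SE 0.75, adjusted p = 0.0323, edgeR) in *Cnp-Cre Jab1fl/fl* and 3.49 (SE 0.45, adjusted p = 0.0365, edgeR) in double mutants. *Aldh18a1*, whose product catalyzes the first step from glutamate toward proline, lies at chr19:40550257-40588463 on the reverse strand and overlaps *Gm15801* on the same strand, so its count is uncertain. WT samples 1, 3, 5 and 6 had 11.1, 9.70, 6.71 and 15.1 CPM. *Cnp-Cre Jab1fl/fl* samples 1 to 4 had 28.7, 53.0, 13.0 and 22.02 CPM, of which sample 3 lay within the WT range. Double mutants had 20.8, 37.8, 21.6 and 37.8 CPM, all above WT. Its log2 fold changes of 1.45 (SE 0.47, adjusted p = 0.0896, edgeR) and 1.46 (SE 0.39, adjusted p = 0.179, edgeR) did not pass the threshold. In all 3 genes of this group, *Cnp-Cre Jab1fl/fl* sample 2 was the highest of its genotype.

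*Eif4ebp1* encodes 4E-BP1, which binds the cap-binding factor eIF4E and blocks initiation unless it is phosphorylated by mTORC1, and lies on the forward strand at chr8:27260329-27276674. The WT values were 5.70, 4.17, 1.66 and 6.45 CPM in samples 1, 3, 5 and 6. Those of *Cnp-Cre Jab1fl/fl* samples 1 to 4 were 24.01, 67.0, 23.7 and 66.9 CPM, and those of double-mutant samples 1, 2, 3 and 5 were 55.5, 50.4, 38.5 and 36.5 CPM. No sample of either mutant genotype came within the WT range. The log2 fold change was 3.34 (SE 0.55, adjusted p = 0.00653, edgeR) in *Cnp-Cre Jab1fl/fl* and 3.32 (SE 0.46, adjusted p = 0.0404, edgeR) in double mutants, and the estimates of the 2 genotypes against each other differed by -0.01 (95% interval -0.93 to 0.92). A further 7 genes of cap-dependent initiation were tested, among them *Eif4e*, *Eif4g1*, *Eif4a1* and *Mtor*, and 0 of 7 passed the threshold in any comparison. The smallest p against WT belonged to *Rptor*, a subunit of mTORC1, in *Cnp-Cre Jab1fl/fl* (log2 fold change 0.56, SE 0.42) and to *Eif4a1*, the helicase of the cap-binding complex, in double mutants (0.52, SE 0.26).

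**Figure D2:**
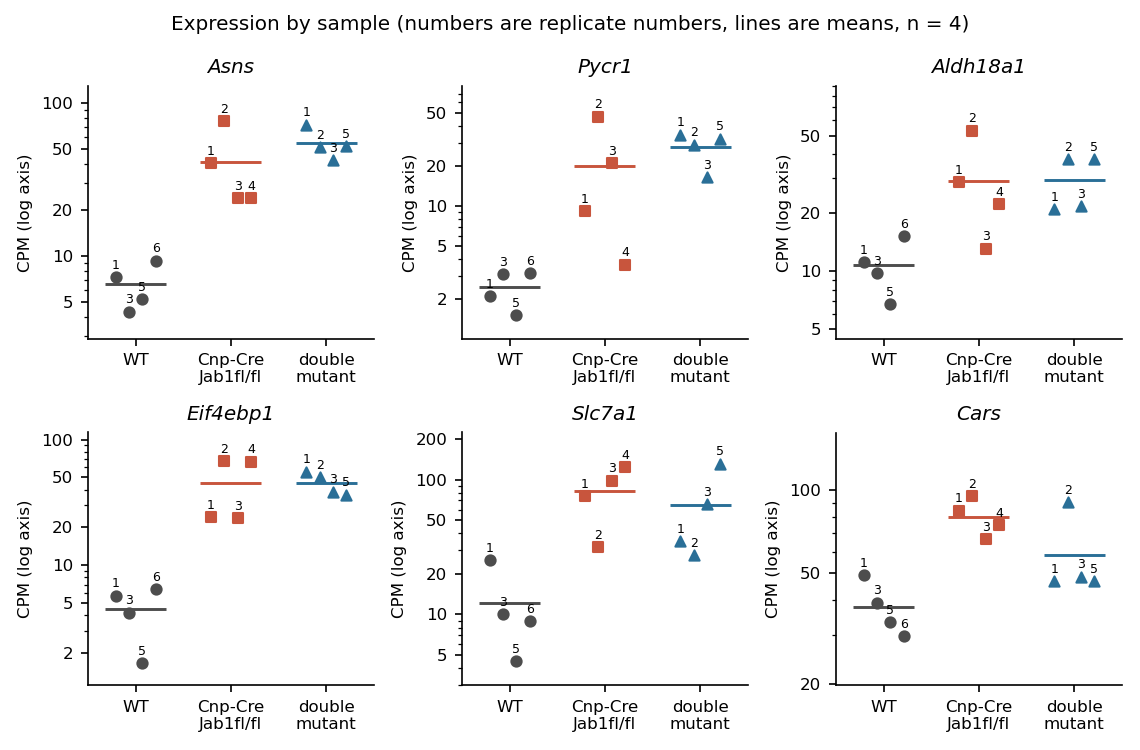
Expression in CPM (y axes, logarithmic) of Asns, Pycr1, Aldh18a1, Eif4ebp1, Slc7a1 and Cars in the 4 samples of each genotype, with replicate numbers beside the points and the mean as a line. Asns and Eif4ebp1 of both mutant genotypes lie above every WT sample, Slc7a1 of Cnp-Cre Jab1fl/fl sample 2 (31.5 CPM) is close to WT sample 1 (25.4 CPM), and Cars of double mutants lies within or near the WT range except in sample 2 (90.5 CPM).

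The level of these 3 genes can be set beside the cell type markers sample by sample. Double-mutant sample 1 had 52714 CPM of mature oligodendrocyte markers, more than WT samples 1, 3 and 6, and the fewest microglia and choroid plexus markers of the mutant samples (524 and 5354 CPM), both still above every WT sample. Its *Asns*, *Pycr1* and *Eif4ebp1* were at 72.2, 34.3 and 55.5 CPM. Double-mutant sample 3, with 25298 CPM of microglia markers, had the lowest *Asns* and *Pycr1* of its genotype, and *Eif4ebp1* at 38.5 CPM, next to the lowest in sample 5 (36.5 CPM). *Cnp-Cre Jab1fl/fl* sample 4, with 3649 CPM of microglia markers, had the lowest *Pycr1* of that genotype (3.63 CPM). Its *Asns* (23.97 CPM) was level with sample 3 (23.98 CPM), and its *Eif4ebp1* (66.9 CPM) with the highest, in sample 2 (67.0 CPM). No common order with microglia markers was seen, as sample 1, at 3609 CPM of them, had 40.4 CPM of *Asns*, and sample 3 had 2359 CPM. Double-mutant sample 5, at 2773 CPM of these markers, had 52.2 CPM of *Asns*, and sample 2, at 1165 CPM, had 51.4 CPM. The part of other cell types in these levels was not tested.

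Few of the 8 transporters passed the test. Against WT, 1 of 8 was higher in *Cnp-Cre Jab1fl/fl* (*Slc7a1*) and 0 of 8 in double mutants, and none was lower. Of all genes tested, 5.19% and 0.175% were higher and 2.46% and 0.0169% lower in these 2 comparisons. The median log2 fold changes of 0.21 and 0.05 rested on single samples, as they were 0.49 and 0.61 without WT sample 3 and 0.09 and -0.07 without WT sample 1. *Slc7a1*, on the reverse strand at chr5:148327410-148399904, carries the cationic amino acids arginine, lysine and ornithine. It was at 25.4, 10.1, 4.50 and 8.96 CPM in WT samples 1, 3, 5 and 6. *Cnp-Cre Jab1fl/fl* samples 1 to 4 had 75.6, 31.5, 98.3 and 123 CPM, and double-mutant samples 1, 2, 3 and 5 had 35.0, 27.6, 65.4 and 131 CPM. All 8 were above WT, with sample 2 of each mutant genotype and double-mutant sample 1 the closest to it. The log2 fold change was 2.75 (SE 0.57, adjusted p = 0.0155, edgeR) in *Cnp-Cre Jab1fl/fl*, whereas that of 2.40 (SE 0.63, adjusted p = 0.161, edgeR) in double mutants did not pass the threshold. The 2 mutant genotypes differed by -0.34 (95% interval -1.31 to 0.63).

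*Slc7a5*, the large neutral amino acid transporter LAT1 (chr8:121881150-121907694, overlapping *Gm20388* on the other strand), was more scattered. Its values were 19.3, 76.9, 8.44 and 13.7 CPM in WT samples 1, 3, 5 and 6, with sample 3 far above the others, and 176, 29.3, 95.8 and 64.5 CPM in *Cnp-Cre Jab1fl/fl* samples 1 to 4. Double-mutant samples 1, 2, 3 and 5 had 29.1, 43.5, 117 and 179 CPM, so both groups overlapped with WT. The log2 fold changes of 1.63 (SE 0.70, adjusted p = 0.196, edgeR) and 1.64 (SE 0.75, adjusted p = 0.411, edgeR) did not pass. Both transporters are known from the blood-brain barrier, where endothelial cells carry them. In the mutant samples, endothelial markers moved with them, though not these markers alone. The summed endothelial markers were 5669, 792, 2736 and 4283 CPM in *Cnp-Cre Jab1fl/fl* samples 1 to 4 and 683, 792, 3261 and 5312 CPM in double-mutant samples 1, 2, 3 and 5, against 760, 646, 359 and 633 CPM in WT samples 1, 3, 5 and 6. The 3 mutant samples with endothelial markers close to WT, between 683 and 792 CPM, had *Slc7a1* at 27.6 to 35.0 CPM, still above the highest WT sample at 25.4 CPM, and *Slc7a5* at 29.1 to 43.5 CPM, within the WT range. The other 5 had *Slc7a1* at 65.4 to 131 CPM and *Slc7a5* at 64.5 to 179 CPM. *Asns* and *Pycr1* ran largely the other way. They were at 51.4 to 76.2 and 28.9 to 46.9 CPM in the former 3 samples and 23.97 to 52.2 and 3.63 to 32.2 CPM in the latter 5. *Eif4ebp1* was at 50.4 to 67.0 CPM in the former 3 and 23.7 to 66.9 CPM in the latter 5. The former 3 samples also had the fewest microglia markers of the mutant samples (524 to 1394 CPM, against 2359 to 25298 CPM in the latter 5). The same held for choroid plexus markers (5354 to 7228 CPM, against 11182 to 24320 CPM). WT sample 3 had *Slc7a5* at 76.9 CPM with only 646 CPM of endothelial markers. The parts of endothelial, microglia and choroid plexus RNA in the levels of *Slc7a1*, *Slc7a5*, *Asns*, *Pycr1* and *Eif4ebp1* were not tested.

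**Figure D3:**
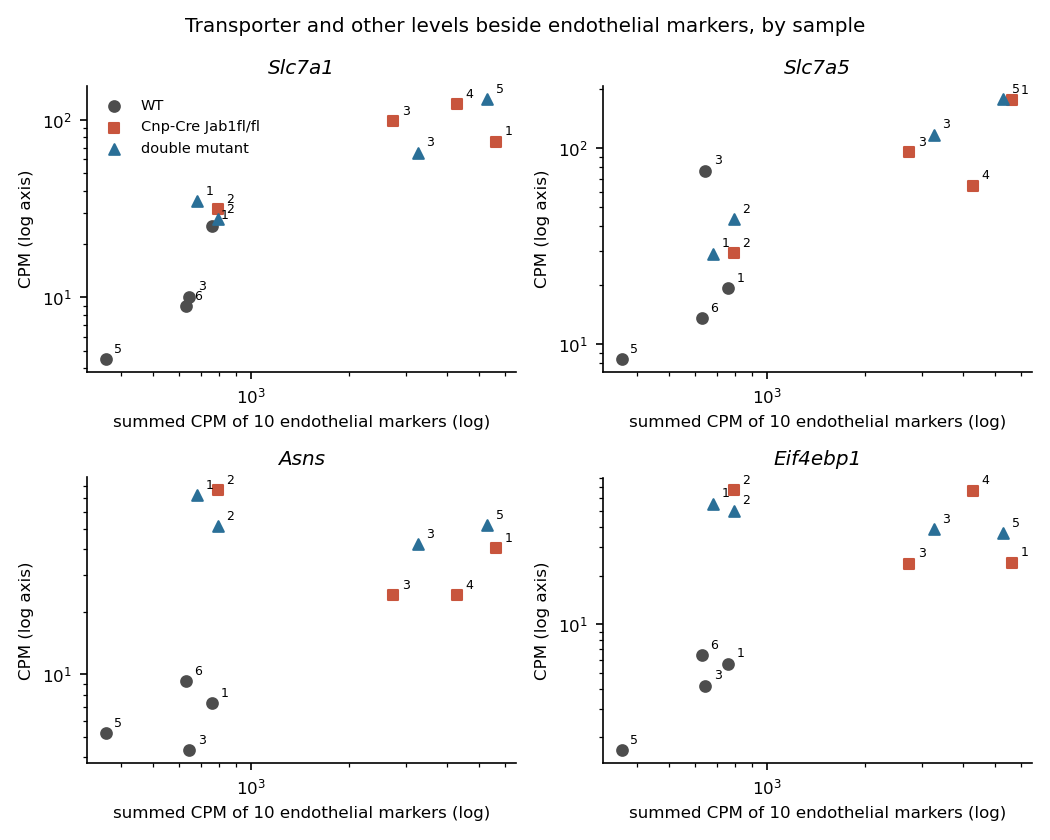
CPM of Slc7a1, Slc7a5, Asns and Eif4ebp1 (y axes, logarithmic) against the summed CPM of 10 endothelial markers (x axes, logarithmic) in the 12 samples, with replicate numbers. The 5 mutant samples with endothelial markers of 2736 CPM or more have the highest Slc7a1, while Asns and Eif4ebp1 are above WT at both low and high endothelial markers. The same 5 samples also have more microglia and choroid plexus markers than the other mutant samples.

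*Slc3a2*, the heavy chain that LAT1 and the cystine transporter need to reach the membrane, was the most abundant of the 31 genes per kilobase of exons in WT, at 179 ± 24.9 CPM per kilobase (SD, n = 4). Its CPM was 432 to 600 in WT, between 543 and 828 in *Cnp-Cre Jab1fl/fl* and 593 to 1416 in double mutants. The log2 fold change in double mutants was 0.78 (SE 0.34, adjusted p = 0.378, edgeR). *Slc7a11*, the cystine-glutamate exchanger xCT, has 2 matches of the element in its promoter, printed above, and overlaps several other annotated genes. It was at 111, 191, 55.5 and 179 CPM in WT samples 1, 3, 5 and 6, at 85.5, 96.7, 102 and 50.9 CPM in *Cnp-Cre Jab1fl/fl* samples 1 to 4 and at 52.1, 150, 117 and 68.9 CPM in double-mutant samples 1, 2, 3 and 5. All 3 groups overlapped. Its 95% interval against WT ran from -1.55 to 0.19 on the log2 scale in *Cnp-Cre Jab1fl/fl*. For the RNA of all sorted cells together, this leaves out an increase of the size seen for *Asns* or *Eif4ebp1*. In each genotype *Slc7a11* was lowest in the sample with the fewest astrocyte markers. These were WT sample 5, *Cnp-Cre Jab1fl/fl* sample 4 and double-mutant sample 1 (6655, 4394 and 4809 CPM of markers). The highest samples coincided in WT only. The part of astrocyte RNA was not tested.

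*Slc38a2* and *Slc1a4*, transporters of small neutral amino acids, had estimates below 0 in *Cnp-Cre Jab1fl/fl* that did not pass the threshold. *Slc38a2* (SNAT2) was at 212, 287, 353 and 180 CPM in WT samples 1, 3, 5 and 6 and at 143, 198, 100.4 and 161 CPM in *Cnp-Cre Jab1fl/fl* samples 1 to 4, a log2 fold change of -0.78 (SE 0.32, adjusted p = 0.177, edgeR), and double mutants spanned 97.4 to 338 CPM. *Slc1a4* (ASCT1), which carries serine and alanine, was at 148, 362, 92.2 and 132 CPM in WT samples 1, 3, 5 and 6. In *Cnp-Cre Jab1fl/fl* samples 1 to 4 it was at 133, 139, 79.1 and 22.4 CPM, and in double-mutant samples 1, 2, 3 and 5 at 87.0, 228, 224 and 134 CPM. Like *Slc7a11*, it was lowest in each genotype in the sample with the fewest astrocyte markers, and the part of astrocyte RNA was not tested. The log2 fold change of *Slc1a4* was -0.98 (SE 0.56, adjusted p = 0.338, edgeR) in *Cnp-Cre Jab1fl/fl* against WT. Between double mutants and *Cnp-Cre Jab1fl/fl* it was 0.85 (SE 0.53, adjusted p = 0.996, edgeR), the smallest p among transporters in that comparison, and well short of the threshold. *Slc1a5* (ASCT2) was low, at 3.14 to 18.1 CPM over the 12 samples. The cationic transporter gene *Slc7a3* had 0 to 7.48 CPM, with 0 counts in *Cnp-Cre Jab1fl/fl* sample 2 and in double-mutant samples 1 and 3, and the largest standard errors of the 31 genes in all comparisons (1.43 to 2.19).

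Among the 19 cytosolic tRNA synthetases, which charge tRNAs in the cytosol, 1 was higher in *Cnp-Cre Jab1fl/fl* than in WT (*Cars*) and 0 were lower. An estimate above 0 was found in 10 and below 0 in 9. The median log2 fold change was 0.05, within a range of -0.90 (*Iars*) to 1.08 (*Cars*). At the same adjusted threshold 5.19% of all genes tested were higher and 2.46% lower. In 8 of the 19 genes the 95% interval lay within 1 on either side of 0. *Cars*, the cysteinyl-tRNA synthetase, lies at chr7:143557230-143600090 on the reverse strand and overlaps *Mir7064* and *Gm15580*. Its WT values were 49.4, 39.2, 33.4 and 29.6 CPM in samples 1, 3, 5 and 6, and those of *Cnp-Cre Jab1fl/fl* samples 1 to 4 were 84.4, 95.2, 66.6 and 74.8 CPM, without overlap. The log2 fold change was 1.08 (SE 0.28, adjusted p = 0.0365, edgeR). Double-mutant samples 1, 2, 3 and 5 had 47.0, 90.5, 48.7 and 46.8 CPM, of which only sample 2 reached the values of *Cnp-Cre Jab1fl/fl*, and the log2 fold change against WT was 0.61 (SE 0.32, adjusted p = 0.474, edgeR). The difference between the 2 mutant genotypes was -0.46 (95% interval -1.15 to 0.23), so a lower level in double mutants was not shown.

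The lower estimates were those of *Iars*, *Dars*, *Wars* and *Qars*, which charge tRNAs with isoleucine, aspartate, tryptophan and glutamine. *Iars* was at 72.4, 144, 134 and 53.9 CPM in WT samples 1, 3, 5 and 6 and at 42.1, 69.0, 44.0 and 60.7 CPM in *Cnp-Cre Jab1fl/fl* samples 1 to 4 (log2 fold change -0.90, SE 0.36, adjusted p = 0.163, edgeR). *Wars* was at 56.5, 87.7, 79.2 and 51.6 CPM in WT samples 1, 3, 5 and 6, at 42.5, 57.4, 34.4 and 28.7 CPM in *Cnp-Cre Jab1fl/fl* samples 1 to 4 and at 49.4, 90.0, 91.5 and 75.4 CPM in double-mutant samples 1, 2, 3 and 5. Its log2 fold change was -0.75 (SE 0.31, adjusted p = 0.181, edgeR) in *Cnp-Cre Jab1fl/fl* against WT. Between double mutants and *Cnp-Cre Jab1fl/fl* it was 0.91 (SE 0.33, adjusted p = 0.903, edgeR). Double-mutant sample 1 overlapped with *Cnp-Cre Jab1fl/fl* sample 2, and the remaining 3 double mutants were above all 4.

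In double mutants, 13 of the 19 synthetases had an estimate above 0 against WT and 6 below, with a median of 0.41 (all genes tested had a median of 0.00), and 0 of 19 passed the adjusted threshold. The smallest p was that of *Rars*, the arginyl-tRNA synthetase. It was at 26.8, 27.3, 34.4 and 32.8 CPM in WT samples 1, 3, 5 and 6 and at 49.8, 56.1, 58.2 and 50.4 CPM in double-mutant samples 1, 2, 3 and 5. No double mutant overlapped with WT, the log2 fold change was 0.81 (SE 0.25, adjusted p = 0.221, edgeR), and the call was missed over all genes. *Cnp-Cre Jab1fl/fl* samples 1 to 4 had 31.04, 80.0, 28.6 and 33.7 CPM of *Rars*, 3 of them within the WT range and sample 2 above all other samples (log2 fold change against WT 0.52, SE 0.37). *Yars* was the other synthetase without overlap between double mutants (115 to 175 CPM) and WT (80.1 to 113 CPM), and *Nars* the other one, beside *Cars*, without overlap between *Cnp-Cre Jab1fl/fl* (173 to 205 CPM) and WT (108 to 172 CPM). Among all genes tested, 4.52% were without overlap above WT in double mutants and 9.9% in *Cnp-Cre Jab1fl/fl*.

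**Figure D4:**
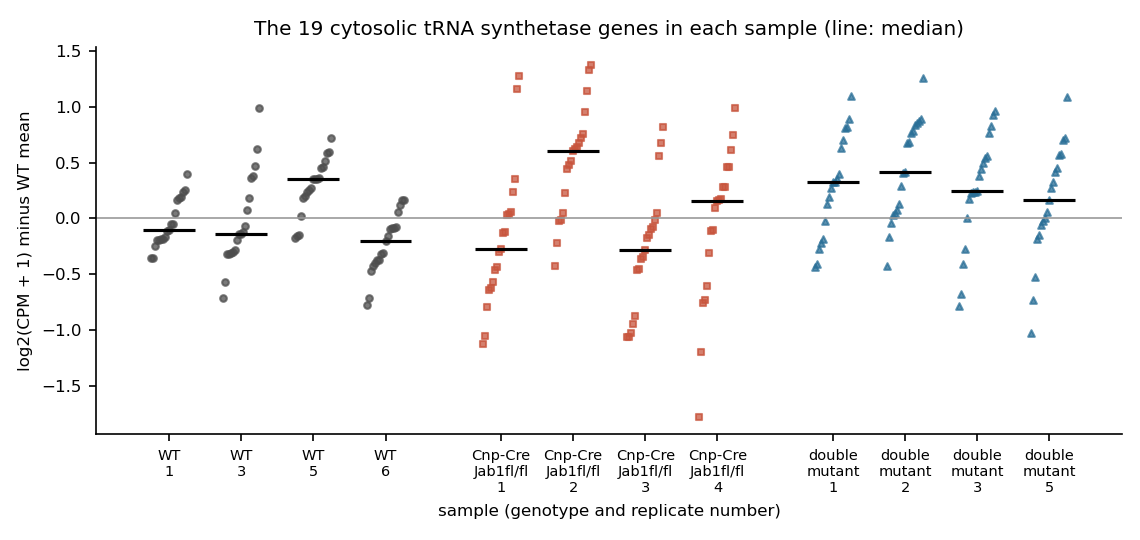
Difference of log2(CPM + 1) from the mean of the WT samples (y axis) for each of the 19 cytosolic tRNA synthetase genes in the 12 samples (x axis), with the median of each sample as a line. Medians run from -0.20 to 0.35 in WT, from -0.28 to 0.60 in Cnp-Cre Jab1fl/fl and from 0.17 to 0.42 in double mutants, with Cnp-Cre Jab1fl/fl sample 2 and WT sample 5 above the others of their genotype.

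Samples of one genotype differed in the synthetases as a set. The median difference of the 19 genes from the WT mean, on the log2(CPM + 1) scale, was -0.10, -0.14, 0.35 and -0.20 in WT samples 1, 3, 5 and 6. It was -0.28, 0.60, -0.28 and 0.16 in *Cnp-Cre Jab1fl/fl* samples 1 to 4 and 0.32, 0.42, 0.25 and 0.17 in double-mutant samples 1, 2, 3 and 5. *Cnp-Cre Jab1fl/fl* sample 2 was the highest of its genotype in 16 of 19 synthetases and in 23 of the 31 genes, and WT sample 5 in 12 of 19 synthetases. Sample 2 also had the fewest microglia, endothelial and choroid plexus markers of its genotype (1394, 792 and 6407 CPM) and the most mature oligodendrocyte markers (35144 CPM), but also the most neuron markers (750 CPM for 10 genes, against 328 to 348 CPM in the others). WT sample 5 had the most mature oligodendrocyte markers of all (105683 CPM). The part of this make-up in the synthetase levels was not tested. Without *Cnp-Cre Jab1fl/fl* sample 2 the median log2 fold change of the 19 genes against WT was -0.20, with 6 of 19 above 0, whereas it was 0.18 without sample 1 and 0.19 without sample 3, each with 12 of 19 above 0. Between double mutants and *Cnp-Cre Jab1fl/fl* the median was 0.30 with all samples, 0.53 without sample 2 of *Cnp-Cre Jab1fl/fl*, 0.19 without its sample 1 and 0.16 without its sample 3.

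Within WT, levels per kilobase of exons placed *Slc3a2* first, followed by *Slc38a2*, *Sars*, *Slc1a4* and *Nars* at 55.4 ± 16.6, 50.4 ± 11.99, 46.7 ± 30.9 and 46.7 ± 9.26 CPM per kilobase (SD, n = 4), which do not differ beyond their spread. The synthetases ran from 50.4 (*Sars*) to 10.4 ± 1.60 CPM per kilobase (*Tars*, SD, n = 4). The genes that were higher in mutants were among the lowest in WT, with *Asns* at 3.02 ± 1.03, *Eif4ebp1* at 2.25 ± 1.06, *Slc7a1* at 1.704 ± 1.27 and *Pycr1* at 0.653 ± 0.208 CPM per kilobase (SD, n = 4), in positions 27 to 30 of 31. *Cars*, at 11.8 ± 2.67 CPM per kilobase (SD, n = 4), was in position 22.

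Other genes of the same pathways were counted for comparison. Of the 17 mitochondrial tRNA synthetases, 0 passed the threshold in any comparison, and the median log2 fold changes against WT were 0.19 in *Cnp-Cre Jab1fl/fl* and -0.08 in double mutants. The smallest p in *Cnp-Cre Jab1fl/fl* was that of the methionyl enzyme *Mars2*, at 21.2 to 33.4 CPM in WT and 9.52 to 17.8 CPM in *Cnp-Cre Jab1fl/fl* (log2 fold change -1.12, SE 0.35, adjusted p = 0.0798, edgeR), and in double mutants that of the leucyl enzyme *Lars2* (1.12, SE 0.45, adjusted p = 0.340, edgeR). Among the 4 partners of the multisynthetase complex (*Mars*, *Aimp1*, *Aimp2* and *Eef1e1*), 0 passed, with the smallest p for the scaffold gene *Aimp2* in double mutants (0.87, SE 0.34, adjusted p = 0.328, edgeR) and for *Aimp1* in *Cnp-Cre Jab1fl/fl* (0.29, SE 0.36). Of 16 other enzymes of amino acid metabolism, 0 passed, and 13 of the 16 had an estimate below 0 in *Cnp-Cre Jab1fl/fl* and 11 in double mutants, where 8688 and 8856 of all 17716 genes did. The asparaginase gene *Asrgl1*, which opposes *Asns*, had the smallest p in both comparisons with WT, at 251 to 321 CPM in WT, 87.1 to 225 CPM in *Cnp-Cre Jab1fl/fl* and 126 to 179 CPM in double mutants, without overlap. Its log2 fold changes were -0.89 (SE 0.33, adjusted p = 0.136, edgeR) and -0.86 (SE 0.26, adjusted p = 0.215, edgeR).

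Of 22 other amino acid transporters, 20 passed the filter, and 1 was higher and 2 lower in *Cnp-Cre Jab1fl/fl* than in WT, with 0 called in the other comparisons. In *Cnp-Cre Jab1fl/fl* against WT, 5.19% of all genes tested were higher and 2.46% lower. *Slc43a2*, a neutral amino acid transporter, was lower, at 26.6 to 44.8 CPM in *Cnp-Cre Jab1fl/fl* against 73.8 to 264 CPM in WT (log2 fold change -2.06, SE 0.41, adjusted p = 0.0137, edgeR). The glycine transporter *Slc6a9* was lower as well, at 8.83 to 30.5 CPM against 33.6 to 528 CPM (log2 fold change -3.28, SE 0.82, adjusted p = 0.0338, edgeR). WT samples 1, 3, 5 and 6 had 45.9, 528, 123 and 33.6 CPM, so the size of this fold change leans on WT sample 3. The glutamine transporter *Slc38a5*, also known from brain endothelium, was higher, at 89.7, 7.71, 36.7 and 172 CPM in *Cnp-Cre Jab1fl/fl* samples 1 to 4 against 6.60 to 15.8 CPM in WT (log2 fold change 2.78, SE 0.74, adjusted p = 0.0446, edgeR). Its sample 2, with the fewest endothelial, microglia and choroid plexus markers of its genotype, lay within the WT range. The part of these cell types was not tested. In double mutants *Slc38a5* again had the smallest p of this list (log2 fold change 2.46, SE 0.57, adjusted p = 0.119, edgeR). Between double mutants and *Cnp-Cre Jab1fl/fl*, none of the genes of these pathway lists passed, and the smallest p belonged to *Vars2*, *Aimp2*, *Glul*, *Slc38a10*, *Rptor* and *Cebpb* of the respective lists.

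Of 14 genes of the integrated stress response, the pathway that runs through ATF4, 7 were higher in *Cnp-Cre Jab1fl/fl* and 0 lower, and in double mutants 3 were higher than in WT and 0 lower. The shares of all genes by the same rule were 5.19% higher and 2.46% lower in *Cnp-Cre Jab1fl/fl*, while for double mutants they were 0.175% higher and 0.0169% lower. The 7 were *Atf3*, *Trib3*, *Nupr1*, *Ppp1r15a*, *Cebpb*, *Ddit3* and *Chac1*, and the 3 were *Trib3*, *Chac1* and *Atf3*. *Trib3*, a pseudokinase gene induced by ATF4, had 0 counts in all 4 WT samples, 3.13, 40.5, 14.6 and 12.6 CPM in *Cnp-Cre Jab1fl/fl* samples 1 to 4, and 20.7, 38.2, 25.9 and 21.4 CPM in double-mutant samples 1, 2, 3 and 5. The transcription factor gene *Atf3* was at 0 to 1.19 CPM in WT, 88.9 to 180 CPM in *Cnp-Cre Jab1fl/fl* and 40.3 to 216 CPM in double mutants. *Atf4* itself, named here for its role, was at 62.3 to 126 CPM in WT, 141 to 263 CPM in *Cnp-Cre Jab1fl/fl* and 85.7 to 213 CPM in double mutants, with a log2 fold change of 1.13 (SE 0.34, adjusted p = 0.0672, edgeR) in *Cnp-Cre Jab1fl/fl* that did not pass. Levels of mRNA do not report ATF4 protein, eIF2 phosphorylation or the charging of tRNAs, none of which was measured here.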

How the data were processed

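RNA-Seq was analyzed in 12 samples of sorted oligodendrocytes, grouped by the genotype in their labels. The authors amplified RNA with a SMART-Seq v4 kit, trimmed paired reads with Trimmomatic 0.32, aligned them with STAR 2.5.3a to GRCm38 and counted them with featureCounts. The deposited table holds raw counts, neither normalized nor filtered, with 1 value per gene symbol and sample. Strand setting and the treatment of reads with several matches are not given in the sources used here, so counts of overlapping genes are uncertain. Positions are from GENCODE M21 basic and promoter sequences from RefSeq.

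CPM were computed with TMM factors of all 12 samples. Genes that reached 1 CPM in 4 or more samples were tested with edgeR 4.0.16 (R 4.3.3), by the quasi-likelihood test on the 8 samples compared, with Benjamini-Hochberg adjustment over 17716 genes at 0.05. Standard errors were derived from the F statistic. Each sample came from its own pair of brains, and p-values measure the spread between these samples. The smallest sample had 61.5 counts per CPM before the TMM factor was applied, so this spread, not counting error, limits most values. On simulated counts, 85% of 200 genes changed by 3 on the log2 scale in the mutant-WT comparison were called, with 3.41% false calls. Alternatives were upper-quartile and DESeq2 size factors, DESeq2 1.42.0, testing without a filter or only above a mean of 10 CPM, fitting the 12 samples together, blocking on replicate number, limma-voom (limma 3.58.1) with quality weights, and leaving out each sample.

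The genes and lists were chosen with earlier results of these data known. Named with values per sample were genes past the adjusted threshold and, per role and comparison, the gene with the smallest p; of pathway lists, up to 5 called genes or the one with the smallest p. *Aldh18a1*, *Slc7a5*, *Slc7a11*, *Slc38a2*, *Slc3a2*, *Iars* and *Atf4* were added after values were seen.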

Additional observations from a re-analysis of the deposited data

Results flagged for a closer look

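Among the 93 groups of 4 samples formed by the 31 genes and 3 genotypes, 7 held a sample that stood apart from the other 3, where 4.65 would be flagged by chance. Of these, 3 were in WT. *Slc7a5* was at 76.9 CPM in WT sample 3 against 8.44 to 19.3 in the others, and in WT sample 5 *Dars* was at 131 CPM against 75.8 to 76.7 and *Gars* at 141 CPM against 68.8 to 78.8. In *Cnp-Cre Jab1fl/fl* sample 2, *Rars* was at 80.0 CPM against 28.6 to 33.7 and *Yars* at 166 CPM against 63.1 to 80.1. In double-mutant sample 2, *Cars* was at 90.5 CPM against 46.8 to 48.7 and *Slc7a3* at 3.73 CPM against 0 to 0.23.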

How the results depend on the processing

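Of the genes called in *Cnp-Cre Jab1fl/fl* against WT, the same 5 were called with upper-quartile factors, with DESeq2 size factors and with all 12 samples in one fit. Without a filter on low values 3 were called (*Slc7a1*, *Asns* and *Eif4ebp1*), and *Pycr1* and *Cars* had adjusted p = 0.0591 and 0.113 (edgeR). DESeq2 called 7, adding *Slc7a5* and *Aldh18a1*, limma-voom 7, adding *Slc7a5* and *Vars*, and a mean of at least 10 CPM 6, adding *Aldh18a1*. Over all genes, DESeq2 called 1687 higher and 1002 lower, and limma-voom 1307 and 614, against 919 and 435 in the edgeR fit of the Results. Without a filter 581 and 322 of 36070 genes were called, and above a mean of 10 CPM 951 and 488 of 10447. Upper-quartile factors, DESeq2 size factors and the fit of 12 samples gave 944, 921 and 644 higher. In double mutants against WT 3 genes were called in the edgeR fits under other scalings and filters and in limma-voom, and 5 in DESeq2, which added *Slc7a1* and *Aldh18a1*. Over all genes, DESeq2 called 663 higher and 199 lower there, and limma-voom 38 and 9, against 31 and 3 in the edgeR fit of the Results. Leaving out 1 sample gave 3 to 4 calls in *Cnp-Cre Jab1fl/fl* and 0 to 3 in double mutants. Genes higher over all 17716 numbered 504 to 1196 and 1 to 202 in these fits. Fewer samples are tested there, and the cause was not tested further. Between the mutant genotypes all alternatives gave 0 of the 31 genes. The most calls over all genes were those of DESeq2, with 20 higher and 67 lower.

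Replicate numbers did not pair the samples, since samples of the same number did not deviate together (correlation -0.19 to 0.08 over 8 pairs, 0 of them above 0.1). With the replicate number as a block, 0 of 31 genes were called in each comparison with WT, and adjusted p were 0.0647 for *Asns* and 0.0838 for *Eif4ebp1* in *Cnp-Cre Jab1fl/fl*, at log2 fold changes of 2.47 and 2.29. Only 2 numbers are shared by *Cnp-Cre Jab1fl/fl* and WT and 3 by double mutants and WT, so this fit rests on 4 and 6 samples.

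The difference of -0.01 in *Eif4ebp1* between double mutants and *Cnp-Cre Jab1fl/fl* changed sign in 9 fits. It was 0.014 with DESeq2 size factors and with DESeq2, 0.029 without a filter, 0.50 under the block, 0.30 with limma-voom, and -0.22 to 0.26 with 1 sample left out (0.24 without *Cnp-Cre Jab1fl/fl* sample 2, 0.26 without sample 4, 0.08 without double-mutant sample 3 and 0.09 without sample 5). No other fold change given for a single one of the 31 genes turned in direction, but medians near 0 did. In *Cnp-Cre Jab1fl/fl* against WT the synthetase median of 0.05 was -0.05 without a filter, -0.08 with limma-voom and -0.21 under the block, and the median of the 31 genes was -0.04 to 0.31 with 1 sample left out. The transporter median of 0.21 was -0.05 at a mean of at least 10 CPM, but that filter left only 6 of the 8 genes. Log2 values are limited by the spread between samples. This holds for the low gene *Slc7a3* too, with 0 to 587 counts per sample within *Cnp-Cre Jab1fl/fl*.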
